A study of Mus musculus with 18 samples.

Results

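Gene expression in colon crypt epithelial cells was compared between germ-free mice and germ-free mice that had carried a gut microbiota for 14 days. The comparison used 6 of the 18 libraries of the series, 3 in each of 2 groups, and was described across all genes of the count table. Both groups were wild type (WT) C57BL/6J mice that had been rederived germ free, with no engineered allele in their labels. A test of the genotype by colonization interaction, given last, added 6 libraries of mice labelled Ern2-/-. These were labelled GF-Ern2-/- and COLONIZED-Ern2-/-. GF-WT mice stayed in sterile isolators. COLONIZED-WT mice received a cecal homogenate of a conventionally raised (CONV) WT donor by 1 gavage and were then kept in sterile cages outside the isolator, so the gavage, the microbes and the change of housing cannot be told apart. Crypts were isolated from the distal colon at 14 days after the gavage. The age of these mice and the time of day are not given in the sources used here. The labels number the libraries of each group 1 to 3 and do not say how animals were pooled or caged, so the p-values measure the spread between these libraries.

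The colon epithelium renews itself from stem cells at the base of each crypt. Their daughters divide, then become absorptive colonocytes, which take up salt, water and microbial short-chain fatty acids, or secretory cells. Goblet cells, the main secretory type, fill the mucus layer with the mucin MUC2 and with smaller proteins, and depend on a large endoplasmic reticulum (ER). Tuft cells sense luminal signals and enteroendocrine cells release hormones. A microbiota supplies short-chain fatty acids and microbial ligands to this tissue, and germ-free animals are known for a thin mucus layer and slow epithelial turnover.

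Library totals lay between 18.8 and 23.2 in units of 1e6 counts. Of 24047 genes in the table, 17242 had counts in these libraries and 13635 were tested. Values below are counts divided by DESeq2 size factors (normalized counts), in the order of replicates 1, 2 and 3, and differences are log2 fold changes of COLONIZED-WT over GF-WT, so that positive values are higher after colonization. The 12 defining markers of epithelium summed to between 281533 and 324068 normalized counts in GF-WT and between 253088 and 307116 in COLONIZED-WT, and 1 of them, the keratin Krt18, was called (log2 fold change 0.43, SE 0.14, adjusted p 0.009999, and 0.0767 without COLONIZED-WT replicate 1 and not called without GF-WT replicates 1 and 2 or COLONIZED-WT replicate 2 either). Immune markers (22 genes) summed to 188.6 to 299.7 against 274.5 to 426.3, mesenchymal markers (14 genes) to 501.9 to 595.9 against 322.0 to 441.4, and 11 of the former and 2 of the latter had enough counts for the test. None of these 13 was called, although both tested mesenchymal markers were lower without overlap (median −0.49). Pancreatic acinar markers (15 genes, 9 of them at 0 in all 6 libraries, Cela1 the highest) summed to 4683 to 9105 against 3162 to 4263. Of the 4 tested, Cela1, which made up most of the sum, was called lower (log2 fold change −1.0, SE 0.25, adjusted p 0.000532, and 0.0222 without GF-WT replicate 2 and not called without COLONIZED-WT replicate 3 either). Krt18 and Cela1 were named after their values were seen, and neither was called by edgeR (adjusted p 0.0428 and 0.0296). The part of any of these cells in the results below was not tested. In these bulk libraries fewer cells of a type and less RNA per cell cannot be told apart.

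Colonization and sex were partly confounded. Y-linked genes were expressed in COLONIZED-WT replicates 1 and 3, and in no GF-WT library, so only COLONIZED-WT replicate 2 matched the germ-free group in this respect. That library also resembled GF-WT most, with correlations of log2 values of 0.930 to 0.957 with the GF-WT libraries, against 0.889 to 0.939 for COLONIZED-WT replicates 1 and 3. GF-WT replicate 1 stood apart from the other GF-WT libraries on the second principal component (37.06 against −3.847 and −27.30). The first component held 63.6% of the variance and separated the groups.

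By the Wald test of DESeq2 at an adjusted p under 0.01, 2498 genes (18.3% of those tested) differed, 1275 higher (9.35%) and 1223 lower (8.97%) in COLONIZED-WT. The test was repeated 6 times, leaving out a different library each time (leave-one-out). All 6 repeats called 1115 of these genes, and all 2498 kept their direction. The 2498 were chosen on these same libraries, so a kept direction is no independent evidence. The quasi-likelihood test of edgeR called 630 of 12761 genes (4.94%), 398 higher and 232 lower, every one of them among the DESeq2 calls. With sex as a covariate DESeq2 called 231 genes, of which 223 were among the 2498, and 2497 of the 2498 had the same direction. Since no GF-WT library had the Y-linked pattern, that fit takes the difference between the groups from COLONIZED-WT replicate 2 alone against the 3 GF-WT libraries. The same 4 libraries fitted by themselves gave 143 calls. In both fits the lone colonized library is assumed to vary like the others, with the spread of the 4-library fit coming from GF-WT only. A call made or missed in them therefore describes 1 colonized library and is no measure of stability. Beside the counts of a gene list below stand the share of its tested members called, the median log2 fold change, and the rises and falls called by edgeR and by DESeq2 with sex as a covariate, in that order. The normalized counts of the groups did not overlap for 6357 of the tested genes (46.6%). Over all 13635 tested genes, 5336 had an unadjusted p under 0.05 by edgeR and 2198 with sex as a covariate. Counts at an unadjusted p in a list below stand against these.

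**Figure D1:**
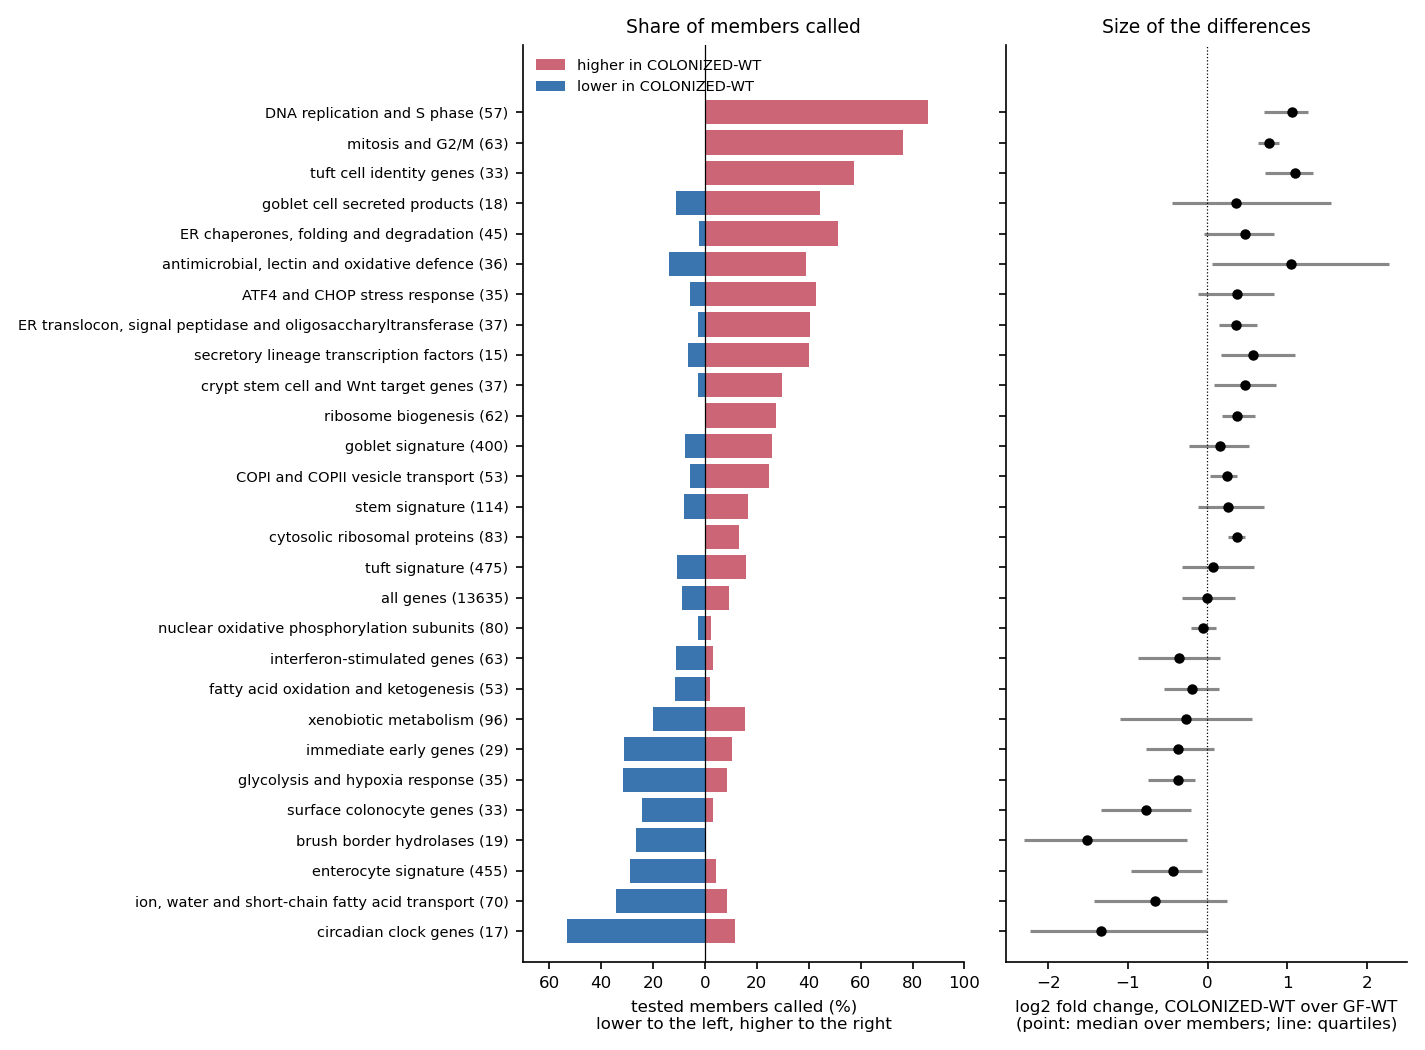
Share of the tested members of each gene list called higher (right) or lower (left) in COLONIZED-WT, in percent, and the median log2 fold change of the members with its quartiles. The number of tested genes stands in parentheses. DNA replication genes (49 of 57 higher) and mitosis genes (48 of 63 higher) lie at the top, all genes in the middle, and circadian clock genes (9 of 17 lower) at the bottom.

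Among genes with a mean of at least 100 normalized counts that both tests called, that did not overlap between the groups and that kept their direction whichever library was left out, 340 were higher and 206 lower. The largest rises were those of Meg3, a long noncoding RNA of an imprinted locus, and Pla2g4c, a cytosolic phospholipase A2. Normalized Meg3 counts were 2.07, 0 and 5.69 in GF-WT and 1189, 569 and 588 in COLONIZED-WT (log2 fold change 8.23, SE 0.86, adjusted p 4.28e-19). Those of Pla2g4c were 22.8, 26.6 and 36.0 in GF-WT and 4746, 1504 and 2303 in COLONIZED-WT (log2 fold change 6.64, SE 0.55, adjusted p 1.32e-30). Every colonized library stood far above every germ-free library for both genes, and COLONIZED-WT replicate 1 was the highest. Meg3 was at 7.63 without GF-WT replicate 2 and 9.62 without GF-WT replicate 3. Meg3 lies at chr12:109540996-109571729 and Pla2g4c at chr7:13311507-13360674 (GRCm38). At the imprinted locus of chromosome 12, Rian (2.07, 0.949 and 0 in GF-WT and 126, 178 and 268 in COLONIZED-WT) and Mirg (0, 0 and 0 in GF-WT and 38.1, 35.1 and 38.9 in COLONIZED-WT), noncoding RNAs that neighbour Meg3, and Dlk1 (2.07, 1.90 and 7.59 in GF-WT and 18.5, 59.2 and 48.6 in COLONIZED-WT) did not overlap between the groups either. These 3 were named after their values were seen.

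Fibronectin (Fn1) rose from 26.9, 19.9 and 12.3 to 586, 127 and 242 (log2 fold change 4.02, SE 0.50, adjusted p 2.83e-13, and 3.23 without COLONIZED-WT replicate 1). The channel gene Ttyh1 (4.06), the brain-type creatine kinase Ckb (3.63), the stress-inducible gene Gadd45g (3.10) and the secreted WAP-domain protein Wfdc18 (2.91) rose as well, with adjusted p of 1.02e-28, 9.61e-39, 2.1e-21 and 8.44e-13. Retnlb, Itln1, Reg3b and Bhlha15, also among the 12 largest rises, are described below with the secretory and antimicrobial genes. Each of these genes was called in all leave-one-out repeats, and Reg3b had an adjusted p of 0.035 with sex as a covariate.

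Among the falls that met the same conditions the largest was that of Atp12a, the H+/K+ ATPase of colonic potassium uptake, with normalized counts of 10865, 6582 and 9511 in GF-WT and 78.1, 618 and 96.2 in COLONIZED-WT (log2 fold change −5.09, SE 0.99, adjusted p 6.97e-06). The acute phase protein Saa1 fell from 8629.5, 17744 and 35100.1 to 405, 1032 and 747 (log2 fold change −4.82, SE 0.65, adjusted p 2.84e-11). Slc15a1, the proton-coupled peptide transporter PEPT1, fell from 1214, 1892 and 3131 to 62.5, 161 and 62.7 (log2 fold change −4.44, SE 0.60, adjusted p 1.49e-11). In all of these, COLONIZED-WT replicate 2 was the highest of the colonized libraries and still lay far below the lowest germ-free library. The cystine and dibasic amino acid transporter subunit Slc7a9 (−3.88), the laminin chain Lama3 (−3.83), the trypsin inhibitor Spink3 (−2.75) and the prostaglandin receptor Ptger3 (−2.50) fell, as did the cytochromes Cyp2d12 (−4.15), Cyp2d13 (−3.56) and Cyp2d34 (−2.98), which are close paralogs whose reads the counting may have split between them. Each of these genes was called in all leave-one-out repeats, and Lama3 was not called with sex as a covariate (adjusted p 0.0269). Without COLONIZED-WT replicate 2 the values were −6.69 for Atp12a and −5.05 for Slc15a1, and without GF-WT replicate 3 they were −4.18 for Saa1, −3.19 for Slc7a9 and −3.17 for Lama3.

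**Figure D2:**
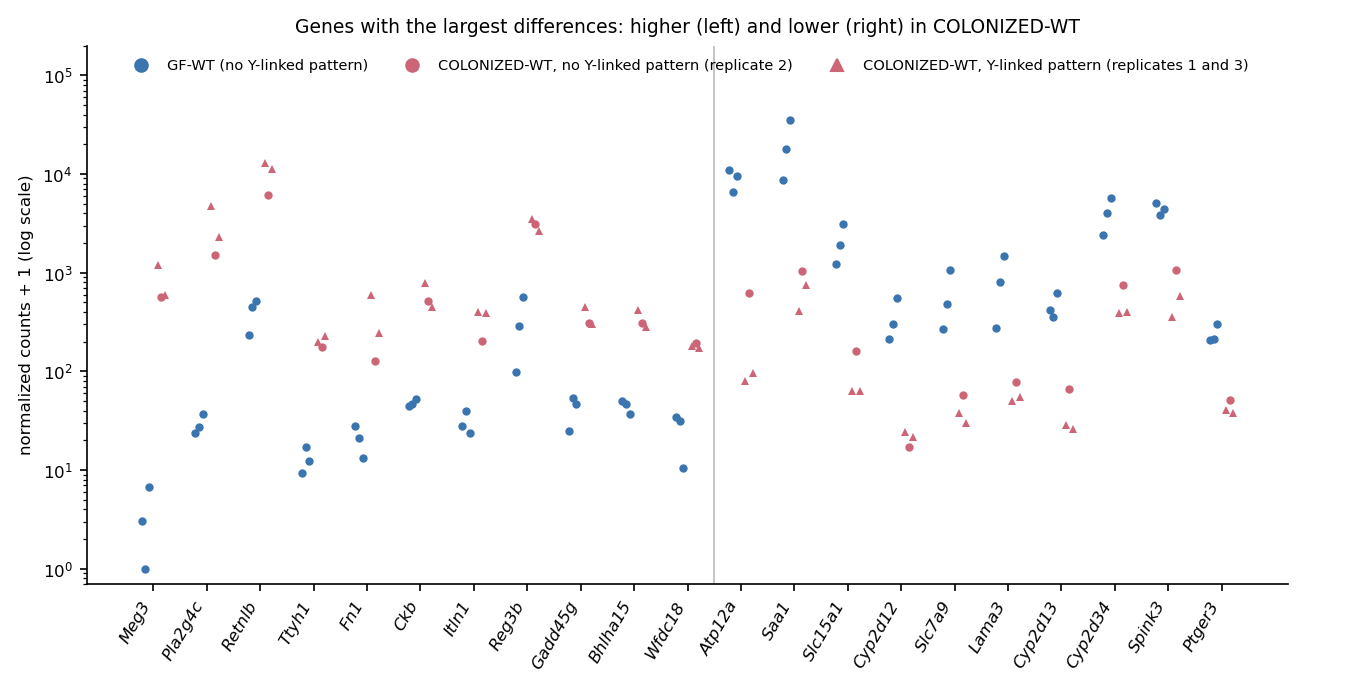
Normalized counts plus 1 on a log scale for genes among the 12 largest rises and the 12 largest falls, 1 point for each library, with triangles for the libraries of Y-linked pattern. The colonized libraries lie above the germ-free ones for each gene on the left and below them for each gene on the right.

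Goblet cell products did not move as a block. Of 18 products tested, 8 rose and 2 fell (55.6% called, median 0.36, edgeR 6 and 0, sex covariate 5 and 0), and the median over all tested genes was −0.01. Muc2, the gel-forming mucin of the colon at chr7:141690340-141754691 on GRCm38, had normalized counts of 66124, 70369 and 68886 in GF-WT and 187159, 185909 and 229754 in COLONIZED-WT (log2 fold change 1.55, SE 0.13, adjusted p 7.63e-29). The lowest colonized library was well above the highest germ-free library. Retnlb, which encodes a bactericidal resistin-like protein of goblet cells, rose from 232, 445 and 514 to 12859.7, 6075 and 11199 (log2 fold change 4.66, SE 0.31, adjusted p 1.56e-46), the smallest adjusted p of the genes named here. Itln1, intelectin-1, a lectin that binds microbial glycans, rose from 26.9, 38.9 and 22.8 to 398, 201 and 391 (log2 fold change 3.48, SE 0.34, adjusted p 1.74e-21). Spink4, a trypsin inhibitor family member secreted by goblet cells, rose from 5301, 5401 and 2281 to 27776, 21931 and 30198 (log2 fold change 2.62, SE 0.28, adjusted p 1.55e-17). These 4 genes were called by both tests, in all leave-one-out repeats and with sex as a covariate.

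Zg16 and Tff3, also secreted into mucus, went the other way. Zg16, a lectin that aggregates Gram-positive bacteria, had 75732, 50537 and 95523 in GF-WT and 4512, 26179.5 and 14096 in COLONIZED-WT (log2 fold change −2.31, SE 0.66, adjusted p 0.00326, and 0.0432 without GF-WT replicate 3 and not called without GF-WT replicates 1 and 2 or COLONIZED-WT replicate 3 either), and it was called in 2 of the 6 leave-one-out repeats, with a value of −2.99 without COLONIZED-WT replicate 2. Tff3, the trefoil peptide of goblet cells, had 15788, 13682 and 15538 in GF-WT and 3551, 8873 and 7193 in COLONIZED-WT (log2 fold change −1.2, SE 0.27, adjusted p 0.000177, and 0.0414 without GF-WT replicate 3). Neither gene overlapped between the groups. Neither was called by edgeR (adjusted p 0.026 and 0.0269) or with sex as a covariate (adjusted p 0.322 and 0.249), where the log2 fold changes were −1.50 and −0.76.

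The mucus proteins Clca3 (named Clca1 in current RefSeq tables) and Fcgbp were not called. A separate entry of the counts with the symbol Clca1 was called higher (log2 fold change 1.1, adjusted p 0.00777). That call was lost without GF-WT replicates 2 and 3, without COLONIZED-WT replicates 1 and 2, and with edgeR (adjusted p 0.0397). This entry was named after its values were seen. The annotation of the counts is not given, so the gene behind its symbol is uncertain. Clca3, a metalloprotease that processes the mucus, had 79606, 42914 and 107836 in GF-WT and 94389.7, 117328 and 144819 in COLONIZED-WT (log2 fold change 0.63, SE 0.29, adjusted p 0.0844). Fcgbp, an abundant partner of the mucin, had 111530.0, 75815 and 139806 in GF-WT and 68897, 88612 and 99656 in COLONIZED-WT (log2 fold change −0.35, SE 0.23, adjusted p 0.258). The groups overlapped for both. Without GF-WT replicate 3, Clca3 was called (0.96, adjusted p 0.00428). Ang4, a microbicidal ribonuclease with close paralogs, had 165, 130.0 and 1001 in GF-WT and 6829, 4399.5 and 9891 in COLONIZED-WT (log2 fold change 4.03, SE 1.00, adjusted p 0.000681, and 0.011 without COLONIZED-WT replicate 3). GF-WT replicate 3 held several times the Ang4 counts of the other germ-free libraries, and less than any colonized library, and without it the log2 fold change was 5.58. Ang4 was called neither by edgeR (adjusted p 0.0138) nor with sex as a covariate (0.169). In the goblet cell signature that the study took from earlier single-cell work, 33.5% of 400 genes were called, all but 30 of them higher (median 0.16), and 69 rises and 14 falls were called in all leave-one-out repeats. Among its falls were Fhl1 (−2.05), the aldo-keto reductase Akr1c14 (−1.25) and Zfp467 (−0.79). The sex covariate fit called 25 signature genes higher and 2 lower, and edgeR called 54 higher and 6 lower.

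Transcription factors of the secretory lineage differed among themselves. Atoh1, which commits cells to that lineage, had 1808, 1489.5 and 1945 in GF-WT and 1677, 1979 and 2027 in COLONIZED-WT (log2 fold change 0.12, SE 0.16, adjusted p 0.614), and the groups overlapped. Spdef, which drives goblet cell maturation, rose from 1165, 1373 and 1771 to 4329.8, 3273 and 3504 (log2 fold change 1.37, SE 0.19, adjusted p 1.51e-10). Bhlha15 (MIST1), which scales up the secretory apparatus of exocrine cells, rose from 48.7, 45.5 and 36.0 to 414, 306 and 281 (log2 fold change 2.94, SE 0.26, adjusted p 1.1e-26). Creb3l1, an ER-anchored factor cleaved in secretory cells (0.71, adjusted p 3.49e-05), and Foxa3 (0.57, adjusted p 0.000992) rose by smaller amounts. Klf4, found in goblet cells and surface colonocytes, fell (−0.80, adjusted p 0.000364). Without COLONIZED-WT replicate 1 their adjusted p were 0.0143 for Foxa3 and 0.0139 for Klf4, and Foxa3 was not called without COLONIZED-WT replicate 2 either, nor Klf4 without COLONIZED-WT replicate 3. Of the list 6 of 15 rose and 1 fell (46.7% called, median 0.57, edgeR 2 and 0, sex covariate 2 and 0). Creb3l1, Foxa3 and Klf4 were not called by edgeR, and of the calls named here those of Spdef and Bhlha15 were also made with sex as a covariate.

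**Figure D3:**
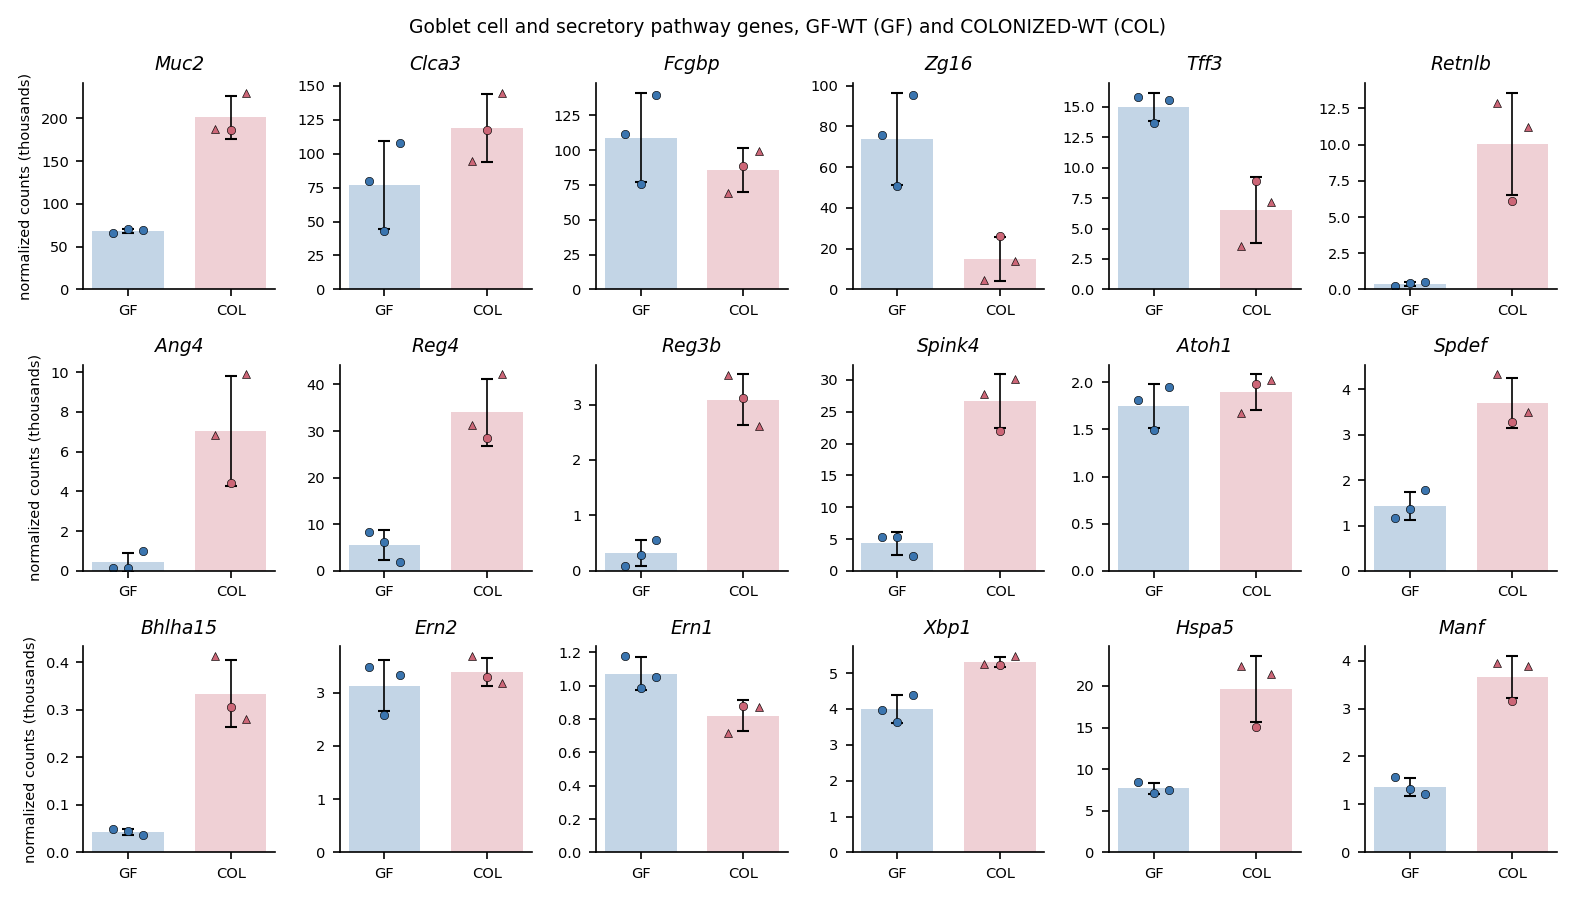
Normalized counts of 18 goblet cell and secretory pathway genes, with bars at the mean, error bars of 1 SD and 1 point for each of the 3 libraries of a group (GF, GF-WT; COL, COLONIZED-WT; triangles, Y-linked pattern). Muc2, Retnlb, Reg4, Spink4, Spdef, Bhlha15, Hspa5 and Manf are higher and Zg16 and Tff3 lower in every colonized library, whereas the groups overlap for Clca3, Fcgbp, Atoh1 and Ern2.

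Genes of the ER folding machinery were mostly higher. ER chaperones and folding enzymes bind new secretory proteins, form their disulfide bonds and hand misfolded ones to degradation. Of 45 tested, 23 rose and 1, Erlec1, fell (53.3% called, median 0.47, edgeR 15 and 0, sex covariate 7 and 0), and 18 of the rises were called in all leave-one-out repeats. Erlec1 had a log2 fold change of −0.51 (adjusted p 0.00145, and 0.0109 without COLONIZED-WT replicate 3). Hspa5 (BiP), the main luminal chaperone, had 8463, 7111 and 7481 in GF-WT and 22429, 15116 and 21420.5 in COLONIZED-WT (log2 fold change 1.35, SE 0.18, adjusted p 3.48e-12). Manf, a secreted ER stress protein, had 1582, 1315 and 1208 in GF-WT and 3948, 3157 and 3878 in COLONIZED-WT (log2 fold change 1.42, SE 0.16, adjusted p 5.19e-16). Creld2, an ER resident induced by ER stress, rose from 649, 524 and 425 to 1866, 1336 and 1959 (log2 fold change 1.69, SE 0.21, adjusted p 3.29e-13). The prolyl isomerase Fkbp11 rose from 94.3, 92.0 and 54.1 to 615, 361 and 544 (log2 fold change 2.66, SE 0.28, adjusted p 1.52e-18). None of these overlapped between the groups. Hspa5, Manf, Creld2 and Fkbp11 were among the 7 members called with sex as a covariate.

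Promoters of this list were searched for the ER stress response element, the sequence that ATF6 and XBP1 are known to bind with NF-Y, spelled here as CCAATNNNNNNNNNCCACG on either strand. RefSeq promoters (GRCm38.p6, 250 bases before to 50 after a gene's start) were found for 39 of the 48 list genes, and 9 of them held the element (23.1%), against 37 of all 27025 genes with a promoter (0.137%). Among the list genes that rose, it stood in 8 of 21 promoters (Calr, Creld2, Derl3, Dnajc3, Hsp90b1, Hspa5, Pdia6 and Syvn1, 38.1%), and among the other tested list genes in 1 of 16, that of Canx (0.30, adjusted p 0.0228). The calls of Dnajc3, Derl3 and Hsp90b1 were made in 2, 2 and 3 of the 6 leave-one-out repeats. Calr, Canx, Dnajc3, Hsp90b1, Pdia6 and Syvn1 were named for this match after their values were seen. A match is a description of these letters and not evidence of binding. The promoters of Hspa5 (chr2:34771840-34772139, plus strand), Hsp90b1 (chr10:86705395-86705694, minus strand, with the element on both strands), Creld2 (chr15:88819396-88819695, plus strand) and Pdia6 (chr12:17266339-17266638, plus strand) are printed 5′ to 3′ along the gene, to show where the element sits before the start, with its fixed bases in capitals (on the opposite strand as their complement).
Hspa5: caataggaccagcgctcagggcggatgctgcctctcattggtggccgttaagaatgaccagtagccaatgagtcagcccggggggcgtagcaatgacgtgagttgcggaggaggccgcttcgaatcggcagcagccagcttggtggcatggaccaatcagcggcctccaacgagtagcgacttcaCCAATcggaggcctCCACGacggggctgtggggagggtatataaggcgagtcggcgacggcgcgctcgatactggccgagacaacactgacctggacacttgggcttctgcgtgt
Hsp90b1: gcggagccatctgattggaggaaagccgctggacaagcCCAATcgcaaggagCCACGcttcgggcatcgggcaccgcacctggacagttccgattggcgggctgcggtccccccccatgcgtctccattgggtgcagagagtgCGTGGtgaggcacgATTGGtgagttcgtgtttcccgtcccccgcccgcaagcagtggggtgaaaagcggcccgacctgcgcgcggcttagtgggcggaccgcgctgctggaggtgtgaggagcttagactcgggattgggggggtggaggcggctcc
Creld2: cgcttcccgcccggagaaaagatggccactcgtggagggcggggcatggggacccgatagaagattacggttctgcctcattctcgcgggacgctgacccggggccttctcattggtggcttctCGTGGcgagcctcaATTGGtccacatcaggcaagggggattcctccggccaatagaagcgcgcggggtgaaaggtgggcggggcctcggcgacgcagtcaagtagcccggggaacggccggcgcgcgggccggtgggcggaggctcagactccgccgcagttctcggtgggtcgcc
Pdia6: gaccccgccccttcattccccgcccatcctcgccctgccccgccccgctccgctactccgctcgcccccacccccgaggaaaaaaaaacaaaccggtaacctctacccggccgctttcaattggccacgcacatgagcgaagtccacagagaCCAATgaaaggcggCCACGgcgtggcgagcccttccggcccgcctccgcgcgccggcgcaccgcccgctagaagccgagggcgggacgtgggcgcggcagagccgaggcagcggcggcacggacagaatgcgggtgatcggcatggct

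Of 8 genes for the sensors of unfolded proteins and their regulators, 2 rose and none fell (25% called, median 0.07, edgeR 0 and 0 with 4 at an unadjusted p under 0.05, sex covariate 0 and 0 with 1 at an unadjusted p under 0.05), and neither rise was called in all leave-one-out repeats. Ern2 (IRE1β), the ER stress sensor of mucosal epithelium, had 3471, 2585 and 3332 in GF-WT and 3689, 3294 and 3173 in COLONIZED-WT (log2 fold change 0.11, SE 0.16, adjusted p 0.622), with overlapping groups and a value of −0.01 without GF-WT replicate 2. Ern1 (IRE1α) had 1179, 988 and 1051 in GF-WT and 715, 879 and 870.0 in COLONIZED-WT (log2 fold change −0.39, SE 0.15, adjusted p 0.0425). Xbp1, whose mRNA IRE1 splices, rose from 3978, 3624 and 4397 to 5263, 5218 and 5480.2 (log2 fold change 0.41, SE 0.12, adjusted p 0.00568). It was called in 1 of the 6 leave-one-out repeats (0.042 without COLONIZED-WT replicate 3 and not called without GF-WT replicates 1 and 2 or COLONIZED-WT replicates 1 and 2 either), and counts per gene do not separate its spliced form. Derl3, an ER degradation factor, had 8.29, 9.49 and 7.59 in GF-WT and 39.0, 23.1 and 33.5 in COLONIZED-WT (log2 fold change 1.91, SE 0.54, adjusted p 0.00278, and 0.0397 without COLONIZED-WT replicate 1 and not called without GF-WT replicates 2 and 3 or COLONIZED-WT replicate 3 either). Ddit3 (CHOP), the proapoptotic factor of ER stress, was not called (log2 fold change −0.17, SE 0.21, adjusted p 0.566). Xbp1 and Derl3 were not called by edgeR, and of the calls named here none was also made with sex as a covariate.

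Other genes of the early secretory pathway were more often called higher than lower, and most were not called. For the translocon, signal peptidase and oligosaccharyltransferase, which move proteins into the ER and glycosylate them, 15 of 37 genes rose and 1 fell (43.2% called, median 0.35, edgeR 7 and 1, sex covariate 3 and 0). Krtcap2 (1.09, adjusted p 3.8e-11), Ssr2 (0.81, 3.37e-08) and Sec61a1 (0.67, 1.46e-07) rose, and Tusc3, a subunit of the oligosaccharyltransferase, fell (−0.83, adjusted p 1.43e-05). Of 53 genes of COPI and COPII vesicles, 13 rose and 3 fell (30.2% called, median 0.25, edgeR 6 and 0, sex covariate 1 and 0). The KDEL receptor Kdelr3 (1.41, adjusted p 9.34e-15) and the coat subunit Copz2 (1.19, 8.39e-08) rose, and Mia2 (−1.48, 5e-06) and Sec23a (−0.92, 0.000179) fell. These 8 genes were called in all leave-one-out repeats. Mia2 and Sec23a were not called by edgeR, and of the calls named here those of Krtcap2, Ssr2, Sec61a1 and Kdelr3 were also made with sex as a covariate.

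The list of ATF4 and CHOP response genes holds many enzymes of amino acid and one-carbon metabolism. In it 15 of 35 rose and 2 fell (48.6% called, median 0.36, edgeR 8 and 0, sex covariate 3 and 0). The mitochondrial folate enzyme Mthfd2 had 81.9, 99.6 and 118 in GF-WT and 449.9, 299.9 and 413 in COLONIZED-WT (log2 fold change 1.96, SE 0.24, adjusted p 6.22e-14). The proline synthesis enzyme Aldh18a1 (1.18, adjusted p 6.25e-12), the serine synthesis enzyme Phgdh (1.60, 2.21e-09) and the amino acid transporter Slc7a5 (1.41, 4.26e-08) rose with it. Atf3, a stress-induced factor, fell with overlapping groups (log2 fold change −1.60, SE 0.44, adjusted p 0.00224, and 0.0677 without GF-WT replicate 3 and not called without GF-WT replicate 2 or COLONIZED-WT replicates 1, 2 and 3 either). Atf3 was not called by edgeR, and of the calls named here those of Mthfd2, Aldh18a1 and Phgdh were also made with sex as a covariate.

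Enzymes that build mucin glycans moved in both directions. Of 16 O-glycan core enzymes 4 rose and 1 fell (31.2% called, median 0.09, edgeR 0 and 1, sex covariate 0 and 0 with 2 at an unadjusted p under 0.05), and of 45 enzymes and transporters of elongation, capping and sulfation 8 rose and 4 fell (26.7% called, median −0.01, edgeR 2 and 1, sex covariate 0 and 1). The fucose pathway enzyme Gmds rose from 4869.7, 4967 and 4367 to 7010.5, 7666 and 8637 (log2 fold change 0.71, SE 0.13, adjusted p 2.71e-06). B4galnt2, which makes the Sda antigen, rose from 8303, 15994 and 16276 to 25709.7, 28842 and 37841 (log2 fold change 1.19, SE 0.26, adjusted p 5.77e-05). The fucosyltransferase Fut2 rose from 3981, 3587 and 4384 to 6164, 5788 and 4992 (log2 fold change 0.50, SE 0.14, adjusted p 0.00316). Fut2 was called in 3 of the 6 leave-one-out repeats (0.0379 without COLONIZED-WT replicate 1 and not called without GF-WT replicate 2 or COLONIZED-WT replicate 2 either). The sulfate transporter Slc26a2 (−1.74, adjusted p 4.02e-12), the core 2 enzyme Gcnt1 (−1.33, 2.69e-07), B4galnt3 (−1.15, 9.16e-05) and B3gnt2 (−1.16, 0.000276) fell. B3gnt6, the core 3 enzyme, had 240.4, 368 and 701 in GF-WT and 536, 641 and 859 in COLONIZED-WT, with overlapping groups (log2 fold change 0.64, SE 0.34, adjusted p 0.148), and was called without GF-WT replicate 3 (1.16, adjusted p 0.000366). The membrane mucin Muc4 rose (log2 fold change 1.02, SE 0.13, adjusted p 6.25e-12). B4galnt2, Fut2, B4galnt3 and B3gnt2 were not called by edgeR, and of the calls named here those of Slc26a2 and Muc4 were also made with sex as a covariate.

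Antimicrobial and defence genes differed widely among themselves. Of 36 tested, 14 rose and 5 fell (52.8% called, median 1.04, edgeR 5 and 2, sex covariate 4 and 2), and the quartiles of the log2 fold changes were 0.06 and 2.27. Among the C-type lectins of the Reg family, Reg3b had 97.4, 285 and 564 in GF-WT and 3527, 3122 and 2615 in COLONIZED-WT (log2 fold change 3.29, SE 0.68, adjusted p 2.35e-05). Reg3g, which kills Gram-positive bacteria, had 32.1, 153 and 264 in GF-WT and 2485, 1181 and 1126 in COLONIZED-WT (log2 fold change 3.42, SE 0.84, adjusted p 0.000544). Reg4, a product of deep crypt secretory cells, had 8349.7, 6294 and 1983 in GF-WT and 31309, 28499.6 and 42161 in COLONIZED-WT (log2 fold change 2.62, SE 0.52, adjusted p 1.15e-05). For all 3 each colonized library was above each germ-free library, and without COLONIZED-WT replicate 1 the adjusted p of Reg3g was 0.0199. Without GF-WT replicate 3 Reg3b was at 4.01 and Reg3g at 4.11. The oxidase Duox2, which releases hydrogen peroxide at the cell surface, rose from 889, 474 and 385 to 1737, 1690.2 and 1491 (log2 fold change 1.49, SE 0.28, adjusted p 2.01e-06). Its maturation factor Duoxa2 had 136, 81.6 and 53.1 in GF-WT and 269, 235 and 169.7 in COLONIZED-WT (log2 fold change 1.32, SE 0.34, adjusted p 0.00112, and 0.0406 without COLONIZED-WT replicate 1 and not called without GF-WT replicate 2 or COLONIZED-WT replicate 2 either). The oxidase activator Noxa1 (1.16, adjusted p 5.43e-11) and the galectin Lgals2 (2.28, 1e-11) rose with them. Reg3g, Reg4, Duox2 and Duoxa2 were not called by edgeR, and of the calls named here those of Noxa1 and Lgals2 were also made with sex as a covariate.

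Saa2 fell with its paralog Saa1, from 75.7, 88.2 and 238 to 2.93, 8.02 and 6.48 (log2 fold change −4.53, SE 0.59, adjusted p 2.81e-12, and −3.83 without GF-WT replicate 3). Lypd8, which keeps flagellated bacteria from the epithelium, had 128100.0, 144621 and 188713 in GF-WT and 54904, 111266 and 86539 in COLONIZED-WT (log2 fold change −0.87, SE 0.25, adjusted p 0.00348, and 0.0386 without GF-WT replicate 3 and not called without GF-WT replicate 2 or COLONIZED-WT replicates 1 and 3 either). Pigr, which carries IgA across the epithelium, overlapped between the groups (180887, 142771 and 118355 in GF-WT and 172959, 197990.0 and 161068 in COLONIZED-WT, log2 fold change 0.27, SE 0.18, adjusted p 0.265). Nos2, the inducible nitric oxide synthase, had 7.25, 0.949 and 1.90 in GF-WT and 8.78, 23.1 and 16.2 in COLONIZED-WT and was not called (log2 fold change 2.27, SE 0.90, adjusted p 0.0419), although the groups did not overlap. Without GF-WT replicate 1 it was called (3.49, adjusted p 0.00988). The gasdermin genes Gsdmc2 (9919, 7367 and 3077 in GF-WT and 28067, 26048 and 32742 in COLONIZED-WT, log2 fold change 2.09, SE 0.32, adjusted p 6.36e-09) and Gsdmcl-ps (2.73, adjusted p 6.11e-10), whose sequences are alike, rose. So did the lipase and phospholipase genes Pnliprp2 (22.8, 22.8 and 51.2 in GF-WT and 495, 113 and 327 in COLONIZED-WT, log2 fold change 3.27, SE 0.49, adjusted p 1.57e-09), Pla2g16 (1.08, adjusted p 6.11e-10) and Pla2g3 (1.55, 1.16e-06), and in that list 7 of 32 rose and 2 fell (28.1% called, median 0.15, edgeR 2 and 0, sex covariate 2 and 0). Lypd8, Gsdmc2, Pnliprp2 and Pla2g3 were not called by edgeR, and of the calls named here those of Saa2, Gsdmcl-ps and Pla2g16 were also made with sex as a covariate.

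Sensors of microbes and NF-κB regulators were called in a share near that of all tested genes. Of 46 tested, 3 rose and 7 fell (21.7% against 18.3%, median −0.24). The muramyl dipeptide sensor Nod2 rose from 30.1, 67.4 and 64.5 to 215, 145 and 184 (log2 fold change 1.74, SE 0.33, adjusted p 3.75e-06). Nlrp6, an inflammasome sensor of the colon, had 6372, 6738 and 6285 in GF-WT and 8191, 8567 and 8375 in COLONIZED-WT (log2 fold change 0.37, SE 0.10, adjusted p 0.00227, and 0.0143 without COLONIZED-WT replicate 2 and not called without COLONIZED-WT replicate 3 either). The NF-κB inhibitor Tnfaip3 (log2 fold change −1.09, SE 0.22, adjusted p 2.2e-05), the kinase Irak2 (log2 fold change −1.03, SE 0.22, adjusted p 5.79e-05) and Nlrp10 (log2 fold change −1.59, SE 0.34, adjusted p 4.42e-05) fell and were called in all leave-one-out repeats. Of these 46 genes none was called by edgeR or with sex as a covariate. There 20 and 8 had an unadjusted p under 0.05, against 5336 and 2198 of all 13635 tested genes.

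Among cytokine and chemokine genes, 5 of 32 rose and 5 fell (31.2% called, median 0.19, edgeR 3 and 1, sex covariate 1 and 0). Over the 27 of them that edgeR fitted the median was −0.175. Ccl9 rose from 109.9, 209.7 and 219 to 777, 607 and 1017 (log2 fold change 2.15, SE 0.28, adjusted p 5.14e-12). Its relative Ccl6 rose from 6187, 5041 and 4222 to 7587, 11437 and 12399 (log2 fold change 1.02, SE 0.22, adjusted p 3.91e-05). Tgfb1 had 68.4, 48.4 and 19.9 in GF-WT and 276, 211 and 220.5 in COLONIZED-WT (log2 fold change 2.38, SE 0.37, adjusted p 8.27e-09). Il22ra1, the epithelial receptor chain for IL-22, fell from 1574, 2018 and 2936 to 742, 1168 and 887 (log2 fold change −1.22, SE 0.25, adjusted p 2.13e-05). All 4 lay apart between the groups. Ccl6 and Il22ra1 were not called by edgeR, and of the calls named here that of Ccl9 was also made with sex as a covariate.

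Interferon-stimulated genes and antigen presentation genes varied with single libraries. Of 63 interferon-stimulated genes 2 rose and 7 fell (14.3% called, median −0.36, edgeR 0 and 1, sex covariate 0 and 0 with 9 at an unadjusted p under 0.05), and their median of −0.36 became 0.04 with sex as a covariate. Relative to the mean of the 6 libraries their level was 0.78 in GF-WT replicate 1 and 0.36 in COLONIZED-WT replicate 2, and between −0.51 and −0.02 in the other 4 libraries. Parp12 (log2 fold change −1.23, SE 0.25, adjusted p 1.45e-05) and Ifih1 (log2 fold change −0.77, SE 0.16, adjusted p 3.81e-05) fell without overlap. Of 29 antigen presentation genes 1, the protease Ctss, fell (log2 fold change −1.25, SE 0.24, adjusted p 7.8e-06) and none rose (3.4% called, median 0.08, edgeR 0 and 0 with 4 at an unadjusted p under 0.05, sex covariate 7 and 0), against 18.3% called of all tested genes. The class II gene H2-Ab1 had 23.8, 42.7 and 92.9 in GF-WT and 60.5, 647 and 61.6 in COLONIZED-WT, so that COLONIZED-WT replicate 2 alone was high, and DESeq2 gave it no adjusted p. The 7 antigen presentation genes called higher with sex as a covariate come from that colonized library alone. Parp12 and Ctss were not called by edgeR, and of the calls named here none was also made with sex as a covariate.

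Cell cycle genes held the largest share of calls among the lists. DNA replication proceeds in the dividing daughters of stem cells in the lower crypt. Of 57 genes of DNA replication and S phase 49 rose, none fell, and all 57 had positive log2 fold changes (86% called, median 1.06, edgeR 31 and 0, sex covariate 14 and 0). Of 63 genes of mitosis and G2/M 48 rose and none fell (76.2% called, median 0.78, edgeR 14 and 0, sex covariate 5 and 0). In all leave-one-out repeats 42 of the former and 23 of the latter were called.

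The replicative helicase subunit Mcm3 had 478, 617 and 409.7 in GF-WT and 1889, 1353 and 1638 in COLONIZED-WT (log2 fold change 1.70, SE 0.20, adjusted p 9.15e-15). Uhrf1, which keeps DNA methylation through replication, had 506, 647 and 467 in GF-WT and 1847, 1338 and 1775 in COLONIZED-WT (log2 fold change 1.61, SE 0.19, adjusted p 1.1e-14). Mcm6 (1.24, adjusted p 4.81e-13) and Mcm10 (1.30, 3.69e-12) rose likewise, and each colonized library was above each germ-free library for these 4 genes. In mitosis, the chromosomal passenger Cdca8 (1.04, 2.99e-11), the transcription factor Mybl2 (1.51, 2.17e-10), and the condensin subunits Ncaph (1.05, 2.08e-08) and Smc2 (0.89, 1.42e-07) rose. Mki67, a marker of cycling cells, had 6328, 4862 and 3185 in GF-WT and 9393, 8495 and 9549 in COLONIZED-WT (log2 fold change 0.93, SE 0.23, adjusted p 0.000443, and 0.0131 without COLONIZED-WT replicate 1 and not called without COLONIZED-WT replicate 3 either). GF-WT replicate 3 was the lowest library for Mki67 and GF-WT replicate 1 the highest of its group. Cdkn1a (p21), an inhibitor of the cycle that is high in surface cells, fell from 4477, 5534 and 8583 to 1355, 2950.1 and 2248 (log2 fold change −1.50, SE 0.29, adjusted p 8.21e-06). Mki67 and Cdkn1a were not called by edgeR, and of the calls named here those of Mcm3, Uhrf1, Mcm6, Mcm10, Cdca8, Mybl2 and Ncaph were also made with sex as a covariate.

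Genes for making ribosomes had smaller positive values. Of 62 genes of ribosome biogenesis 17 rose and none fell (27.4% called, median 0.36, edgeR 3 and 0, sex covariate 0 and 0 with 9 at an unadjusted p under 0.05), among them Nolc1 (log2 fold change 1.01, SE 0.18, adjusted p 1.45e-06) and Bop1 (log2 fold change 0.62, SE 0.12, adjusted p 1.43e-05). Among 83 cytosolic ribosomal protein genes 11 rose and none fell, 82 had positive values (13.3% called, median 0.36, edgeR 0 and 0 with 47 at an unadjusted p under 0.05, sex covariate 0 and 0 with 5 at an unadjusted p under 0.05), and none was called in all leave-one-out repeats. Mitochondrial ribosomal proteins (11 of 77 higher, none lower, 14.3% called, median 0.29, edgeR 0 and 0 with 46 at an unadjusted p under 0.05, sex covariate 0 and 0 with 10 at an unadjusted p under 0.05) and proteasome subunits (6 of 37 higher, none lower, 16.2% called, median 0.27, edgeR 1 and 0, sex covariate 1 and 0) had values of like size. Of all tested genes 9.35% were called higher.

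Among genes of stem cells and Wnt targets 11 of 37 rose and 1 fell (32.4% called, median 0.47, edgeR 3 and 0, sex covariate 2 and 0), and under the sex covariate the median was 0.23. Ccnd1, cyclin D1, had 1399, 1602 and 1543 in GF-WT and 5582, 4002 and 4034 in COLONIZED-WT (log2 fold change 1.58, SE 0.17, adjusted p 5.97e-18). Ephb2, the receptor that positions cells along the crypt, had 2082, 2149 and 1968 in GF-WT and 4273, 3502 and 3557 in COLONIZED-WT (log2 fold change 0.87, SE 0.13, adjusted p 7.06e-09). Notum, a secreted Wnt inhibitor, had 1.04, 1.90 and 1.90 in GF-WT and 50.7, 14.0 and 20.5 in COLONIZED-WT (log2 fold change 4.13, SE 0.92, adjusted p 0.000121), and 3.41 (adjusted p 0.0118) without COLONIZED-WT replicate 1. Lgr5, the stem cell receptor, had 248, 376 and 225 in GF-WT and 428, 390.2 and 487 in COLONIZED-WT (log2 fold change 0.62, SE 0.23, adjusted p 0.0283) and was not called, although the groups did not overlap. Without GF-WT replicate 2 it was called (0.88, adjusted p 0.000267). Lgr4 fell (log2 fold change −0.65, SE 0.14, adjusted p 3.56e-05). Of the Notch pathway 4 of 31 genes rose and 2 fell (19.4% called, median 0.14, edgeR 2 and 0, sex covariate 1 and 0), a share near that of all tested genes, with the feedback inhibitor Nrarp higher (log2 fold change 0.81, SE 0.13, adjusted p 9.47e-09) and the target Hes1 overlapping between the groups (log2 fold change 0.22, SE 0.18, adjusted p 0.368). Lgr4 was not called by edgeR, and of the calls named here those of Ccnd1, Ephb2 and Nrarp were also made with sex as a covariate.

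Most tuft cell identity genes were called higher. Of 33 tested, 19 rose and none fell (57.6% called, median 1.09, edgeR 6 and 0, sex covariate 1 and 0). Dclk1, the kinase that marks these cells, had 512, 412 and 646 in GF-WT and 1894, 1329 and 1061 in COLONIZED-WT (log2 fold change 1.45, SE 0.25, adjusted p 1.73e-07). Avil, an actin-binding protein of the tuft, had 196, 216 and 217 in GF-WT and 843, 535 and 446 in COLONIZED-WT (log2 fold change 1.54, SE 0.25, adjusted p 4.11e-08). Plcb2, a phospholipase C of taste signalling, had 92.2, 67.4 and 66.4 in GF-WT and 409.9, 221 and 219 in COLONIZED-WT (log2 fold change 1.91, SE 0.31, adjusted p 3.33e-08). Cd24a, shared with other secretory cells, rose (log2 fold change 0.94, SE 0.15, adjusted p 8.73e-09). Each colonized library was above each germ-free library for these genes, and 13 members were called in all leave-one-out repeats. The broader single-cell tuft signature (75 of 475 higher and 51 lower, 26.5% called, median 0.07, edgeR 21 and 14, sex covariate 7 and 5) was divided.

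Enteroendocrine genes had few calls, 2 higher and 1 lower of 37 (8.1% called, median 0.56, edgeR 0 and 0 with 10 at an unadjusted p under 0.05, sex covariate 1 and 0), and none of them was made in all leave-one-out repeats. Somatostatin (Sst) rose from 62.2, 89.2 and 92.9 to 128, 219 and 201 (log2 fold change 1.16, SE 0.29, adjusted p 0.000735, and 0.0207 without COLONIZED-WT replicate 2 and not called without COLONIZED-WT replicate 3 either). Ddc, an enzyme of serotonin synthesis, fell (log2 fold change −0.70, SE 0.18, adjusted p 0.00111), with 0.0223 without COLONIZED-WT replicate 1 and not called without COLONIZED-WT replicate 3 either. Peptide YY (Pyy) had 724, 631 and 621 in GF-WT and 758, 1467 and 901 in COLONIZED-WT (log2 fold change 0.66, SE 0.24, adjusted p 0.026), and was called without COLONIZED-WT replicate 1 (0.85, adjusted p 0.00739) and with sex as a covariate (1.15, 4.27e-05). Insl5, a hormone of the distal colon, had 764, 492 and 389.7 in GF-WT and 282, 1158 and 780.3 in COLONIZED-WT (log2 fold change 0.43, SE 0.62, adjusted p 0.635). Insl5 overlapped between the groups, and COLONIZED-WT replicate 1 was the lowest of its group for Sst, Pyy and Insl5. Leaving out COLONIZED-WT replicate 2 turned the Insl5 value to −0.04. Sst and Ddc were called neither by edgeR nor with sex as a covariate.

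Genes of mature absorptive colonocytes were more often lower than higher. In the single-cell enterocyte signature 132 of 455 genes fell and 20 rose (33.4% called, median −0.44, edgeR 7 and 28, sex covariate 3 and 19), 73 and 11 of them in all leave-one-out repeats. Of 70 genes of ion, water and short-chain fatty acid transport 24 fell and 6 rose (42.9% called, median −0.66, edgeR 2 and 7, sex covariate 1 and 6), of 33 surface colonocyte genes 8 fell and 1 rose (27.3% called, median −0.78, edgeR 0 and 0 with 17 at an unadjusted p under 0.05, sex covariate 0 and 0 with 7 at an unadjusted p under 0.05), and of 19 brush border hydrolases 5 fell and none rose (26.3% called, median −1.51, edgeR 0 and 2, sex covariate 0 and 2). GF-WT replicate 1 had the lowest germ-free levels in these lists. In that library the levels of the enterocyte, surface and brush border lists lay within the range of the colonized libraries.

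Electrogenic sodium uptake runs through the epithelial sodium channel. Its γ subunit Scnn1g had 217, 26.6 and 101 in GF-WT and 0.976, 2.01 and 2.16 in COLONIZED-WT (log2 fold change −6.08, SE 0.89, adjusted p 9.29e-10, and −5.23 without GF-WT replicate 1). The multivitamin transporter Slc5a6 fell from 2877, 2112 and 1617 to 805, 914 and 745 (log2 fold change −1.42, SE 0.22, adjusted p 4.13e-09). The butyrate transporter Slc5a8 fell from 12872, 10924 and 9629.6 to 6969.5, 8467 and 6710.1 (log2 fold change −0.59, SE 0.16, adjusted p 0.00197). Slc5a8 was called in 2 of the 6 leave-one-out repeats (0.0302 without COLONIZED-WT replicate 1 and not called without GF-WT replicates 1 and 2 or COLONIZED-WT replicate 3 either). Slc16a1 (MCT1), also a carrier of butyrate, had 8207, 10301 and 7122 in GF-WT and 4877, 7316 and 9865 in COLONIZED-WT (log2 fold change −0.22, SE 0.25, adjusted p 0.543) and overlapped, with a value of 0.01 without COLONIZED-WT replicate 1. The short-chain fatty acid receptor Ffar2 rose from 224, 373 and 497 to 1126, 780.4 and 844 (log2 fold change 1.33, SE 0.28, adjusted p 2.89e-05), and so did Guca2b, uroguanylin, a peptide that drives fluid secretion (log2 fold change 0.88, SE 0.19, adjusted p 4.42e-05). Slc5a8, Ffar2 and Guca2b were not called by edgeR, and of the calls named here those of Scnn1g and Slc5a6 were also made with sex as a covariate.

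Several well-known colonocyte genes were not called. The water channel Aqp8 had 2098, 2772 and 6493 in GF-WT and 127, 436 and 2287 in COLONIZED-WT (log2 fold change −2.0, SE 1.13, adjusted p 0.178), and was called without COLONIZED-WT replicate 3 (−3.75, adjusted p 0.000605). It was at −1.36 without GF-WT replicate 3. The chloride exchanger Slc26a3 had 6970.3, 10437 and 24673 in GF-WT and 2074, 3403 and 8165 in COLONIZED-WT (log2 fold change −1.63, SE 0.81, adjusted p 0.117), and was at −0.94 without GF-WT replicate 3 and −2.36 without COLONIZED-WT replicate 3. Carbonic anhydrase 1 (Car1) had 18524, 98182 and 137294 in GF-WT and 89745, 113729 and 203967 in COLONIZED-WT (log2 fold change 0.68, SE 0.65, adjusted p 0.455). For each of them a library of 1 group reached into the range of the other. Aqp4 (log2 fold change −0.33, SE 0.23, adjusted p 0.286) overlapped as well, its value with sex as a covariate was 0.13, and it was called without COLONIZED-WT replicate 2 (−0.63, adjusted p 0.00527).

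The structural brush border gene Myo1a fell from 19023, 19680.5 and 26940.2 to 9255, 12682 and 10937 (log2 fold change −1.0, SE 0.19, adjusted p 2.44e-06). The adhesion molecule Ceacam20 fell from 1410.4, 2511 and 3133 to 423, 886 and 721 (log2 fold change −1.80, SE 0.31, adjusted p 3.35e-07). Among the hydrolases, angiotensin-converting enzyme (Ace) had 1443, 1023 and 1221 in GF-WT and 322, 574 and 374 in COLONIZED-WT (log2 fold change −1.54, SE 0.24, adjusted p 7.06e-09). The neprilysin gene Mme had 149, 147 and 102 in GF-WT and 11.7, 40.1 and 14.0 in COLONIZED-WT (log2 fold change −2.60, SE 0.44, adjusted p 2.05e-07, and −3.37 without COLONIZED-WT replicate 2). None of these 4 genes overlapped between the groups. Of the tight junction list 2 of 20 rose and 3 fell (25% called against 18.3% of all tested genes, median −0.26). Log2 fold changes were negative for 17 of the 20. The rises were those of the pore-forming claudins Cldn15 (log2 fold change 1.2, SE 0.21, adjusted p 2.57e-07) and Cldn2 (log2 fold change 0.91, SE 0.23, adjusted p 0.000666). Among the falls was occludin (Ocln, log2 fold change −0.71, SE 0.16, adjusted p 0.000144). None of this list was called with sex as a covariate (adjusted p 0.0423 for Cldn15, 0.446 for Cldn2 and 0.066 for Ocln), where 3 of 20 had an unadjusted p under 0.05, and edgeR called 1, Cldn15. Cldn4 had 123, 277 and 1002 in GF-WT and 142, 229 and 287 in COLONIZED-WT (log2 fold change −1.09, SE 0.88, adjusted p 0.368) and overlapped, with a value of 0.13 without GF-WT replicate 3. Myo1a, Ceacam20, Mme, Cldn2 and Ocln were not called by edgeR, and of the calls named here that of Ace was also made with sex as a covariate.

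Of 96 genes of xenobiotic metabolism 15 rose and 19 fell (35.4% called, median −0.27, edgeR 3 and 8, sex covariate 2 and 8). The glutathione transferases Gstm3 (1092, 869 and 922 in GF-WT and 2898, 2293 and 2891 in COLONIZED-WT, log2 fold change 1.49, SE 0.16, adjusted p 1.01e-17) and Gsta3 (143, 187 and 235 in GF-WT and 676, 621 and 621 in COLONIZED-WT, log2 fold change 1.76, SE 0.20, adjusted p 2.68e-15) rose, and Cyp2c68, a cytochrome P450 with close paralogs, fell (log2 fold change −2.10, SE 0.23, adjusted p 6.02e-18). Cyp1a1, the classic target of the aryl hydrocarbon receptor, had at most 1.08 normalized counts in any of the 6 libraries and was not tested. Of 35 genes of glycolysis and the hypoxia response 3 rose and 11 fell (40% called, median −0.37, edgeR 2 and 2, sex covariate 0 and 0 with 10 at an unadjusted p under 0.05), with Epas1 (HIF-2α, log2 fold change −0.68, SE 0.13, adjusted p 2.28e-06) and Bnip3 (log2 fold change −1.80, SE 0.37, adjusted p 2.93e-05) lower and Pfkfb3 (log2 fold change 1.52, SE 0.30, adjusted p 8.94e-06) and Car9 (log2 fold change 0.53, SE 0.12, adjusted p 9.44e-05) higher. Bnip3 was not called by edgeR, and of the calls named here those of Gstm3, Gsta3 and Cyp2c68 were also made with sex as a covariate.

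Of 80 nuclear genes of oxidative phosphorylation 2 rose and 2 fell (5% called, median −0.06, edgeR 1 and 0, sex covariate 0 and 0 with 4 at an unadjusted p under 0.05), and of 53 genes of fatty acid oxidation and ketogenesis 1 rose and 6 fell (13.2% called, median −0.20, edgeR 0 and 1, sex covariate 0 and 1). Ppargc1a, the coactivator of mitochondrial biogenesis, fell from 1803, 1768 and 1908 to 659.7, 727 and 686 (log2 fold change −1.40, SE 0.12, adjusted p 3.84e-27) and was called in all leave-one-out repeats and with sex as a covariate. Cpt1a (log2 fold change −0.13, SE 0.15, adjusted p 0.571), Angptl4 (log2 fold change −0.66, SE 0.46, adjusted p 0.292) and Pparg (log2 fold change 0.07, SE 0.21, adjusted p 0.836) overlapped, and Angptl4 was called without GF-WT replicate 1 (−1.09, adjusted p 0.000143). The retinol carrier Rbp4 rose from 76.7, 71.2 and 58.8 to 266, 352 and 405 (log2 fold change 2.31, SE 0.24, adjusted p 1.33e-18). The intestinal retinol-binding protein Rbp2 fell from 344, 449 and 854 to 105, 83.3 and 192 (log2 fold change −2.11, SE 0.37, adjusted p 6.16e-07). Rbp2 was not called by edgeR, and of the calls named here those of Ppargc1a, Rbp4 and Rbp2 were also made with sex as a covariate.

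**Figure D4:**
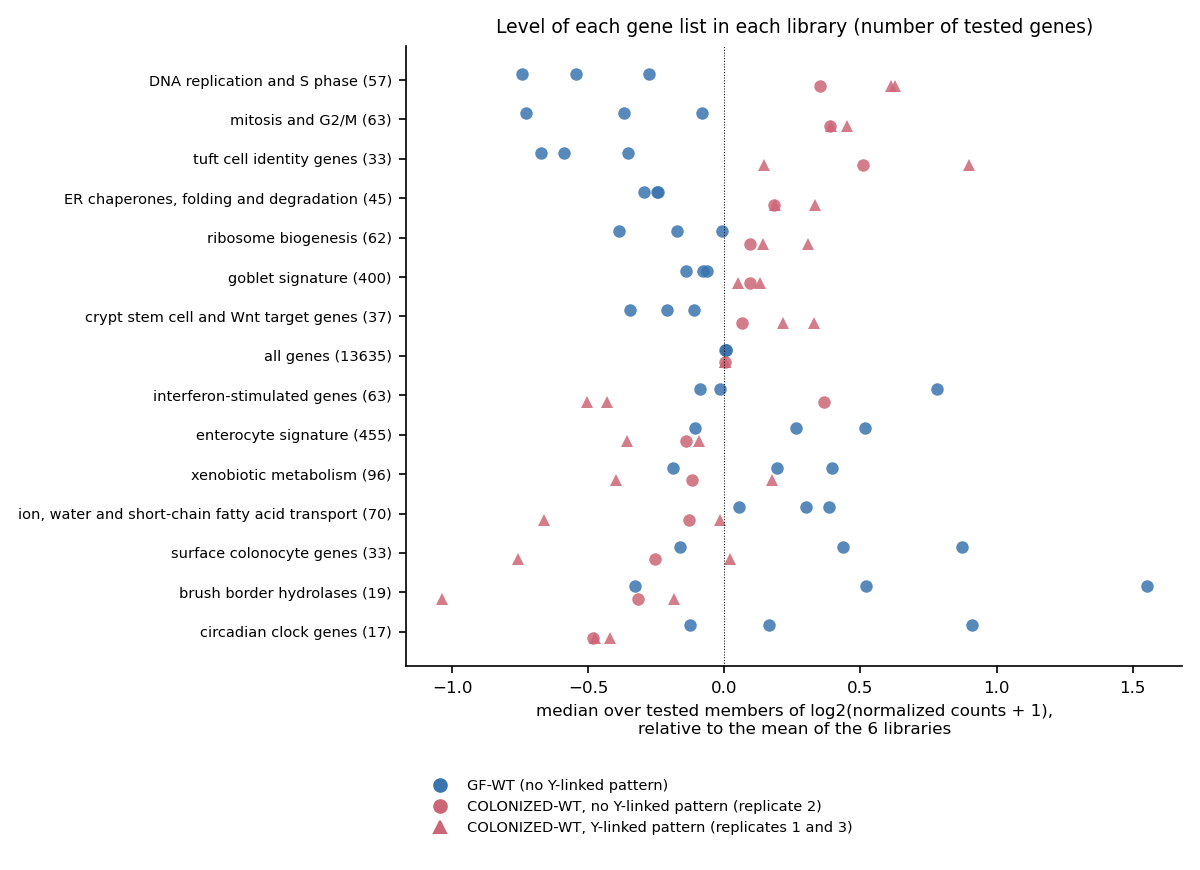
Level of 15 gene lists in each library, as the median over tested members of log2(normalized counts plus 1) relative to the mean of the 6 libraries, with germ-free libraries in blue, colonized ones in red and triangles for the Y-linked pattern. Cell cycle, tuft, ER and goblet lists separate the groups, whereas the interferon, enterocyte, xenobiotic, surface colonocyte and brush border lists overlap.

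Circadian clock genes held the largest share of falls among the lists, with 9 of 17 lower, 2 higher (64.7% called, median −1.34, edgeR 1 and 2, sex covariate 0 and 1). The clock is a loop of activators and their repressors whose transcripts rise and fall over the day, and the hour of collection was not given. The repressor Nr1d1 (REV-ERBα) had 703, 1833 and 3133 in GF-WT and 132, 233 and 351 in COLONIZED-WT (log2 fold change −2.99, SE 0.69, adjusted p 0.000221). Its paralog Nr1d2 had 763, 1106 and 2111 in GF-WT and 195, 341 and 310.2 in COLONIZED-WT (log2 fold change −2.23, SE 0.34, adjusted p 3.96e-09). Per3 had 660.1, 529 and 1029.8 in GF-WT and 219, 237 and 222 in COLONIZED-WT (log2 fold change −1.71, SE 0.25, adjusted p 7.03e-10). Per1 fell (log2 fold change −1.35, SE 0.26, adjusted p 8.02e-06), whereas Cry1 (log2 fold change 0.90, SE 0.17, adjusted p 4.45e-06) and Nfil3 (log2 fold change 1.93, SE 0.36, adjusted p 3.57e-06), which peak at other phases, rose. The germ-free libraries differed among themselves, with a list level of −0.13, 0.16 and 0.91, while the colonized libraries lay between −0.48 and −0.42. The gene called with sex as a covariate was Per3. Nr1d1, Per1 and Nfil3 were not called by edgeR, and of the calls named here that of Per3 was also made with sex as a covariate.

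Immediate early genes, which respond within minutes to stimuli and to handling of tissue, were divided, with 3 of 29 higher and 9 lower (41.4% called, median −0.37, edgeR 2 and 3, sex covariate 1 and 0). Junb (log2 fold change −0.99, SE 0.18, adjusted p 2.63e-06), Fos (log2 fold change −0.98, SE 0.19, adjusted p 4.3e-06) and Zfp36 (log2 fold change −0.80, SE 0.15, adjusted p 5.72e-06) fell, and the orphan receptors Nr4a2 (42.5, 43.6 and 19.9 in GF-WT and 248, 134 and 168 in COLONIZED-WT, log2 fold change 2.38, SE 0.36, adjusted p 5.5e-09) and Nr4a1 (log2 fold change 1.40, SE 0.31, adjusted p 9.05e-05) rose. All 5 were called in all leave-one-out repeats. Nr4a1 was not called by edgeR, and of the calls named here none was also made with sex as a covariate.

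Hox genes mark position along the gut. Of 25 tested, 4 rose and 2 fell (24% called against 18.3% of all tested genes, median 0.31). Genes of paralog group 13 are expressed most distally. Hoxd13 had 101, 394 and 182 in GF-WT and 8.78, 34.1 and 22.7 in COLONIZED-WT (log2 fold change −3.37, SE 0.52, adjusted p 1.05e-08, and −2.70 without GF-WT replicate 2). Hoxa13 had 765, 577 and 662 in GF-WT and 263, 364 and 202 in COLONIZED-WT (log2 fold change −1.27, SE 0.23, adjusted p 1.97e-06), and neither overlapped. Hoxd4 (24.9, 85.4 and 86.3 in GF-WT and 265, 233 and 224 in COLONIZED-WT, log2 fold change 1.87, SE 0.38, adjusted p 1.86e-05) and Hoxd3 (18.7, 19.9 and 25.6 in GF-WT and 107, 57.2 and 60.5 in COLONIZED-WT, log2 fold change 1.81, SE 0.41, adjusted p 0.000137) rose, and so did Hoxb4 and Hoxd8, which lost their calls without COLONIZED-WT replicate 1 (adjusted p 0.11 and 0.0776). Both also lost them without GF-WT replicate 2 and without COLONIZED-WT replicates 2 and 3, and Hoxd8 without GF-WT replicate 3. Hoxb13, named after its values were seen, had 10508, 7634 and 5021 in GF-WT and 3878, 5983 and 3347 in COLONIZED-WT (log2 fold change −0.81, SE 0.28, adjusted p 0.0177) and overlapped. It was called without GF-WT replicate 3 (−1.04, adjusted p 0.000881) and without COLONIZED-WT replicate 2 (−1.09, 0.00283). No Hox gene was called by edgeR or with sex as a covariate. There 8 and 5 of the 25 had an unadjusted p under 0.05, against 5336 and 2198 of all 13635 tested genes.

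Of 16 markers of small intestine and Paneth cells, 11 of them tested, 1 rose and 4 fell (45.5% called, median −1.99, edgeR 1 and 0, sex covariate 1 and 1), and 3 were at 0 in all 6 libraries. Their sum was 5184, 16762 and 27268 in GF-WT and 5777, 6487 and 10846 in COLONIZED-WT, with Fabp2 the highest. Of these, sucrase-isomaltase (Sis, 163, 866 and 1848 in GF-WT and 68.3, 56.2 and 71.3 in COLONIZED-WT, log2 fold change −3.88, SE 0.88, adjusted p 0.000154), Apoa1 (29.0, 4.74 and 565 in GF-WT and 0.976, 1.00 and 1.08 in COLONIZED-WT, log2 fold change −7.61, SE 1.84, adjusted p 0.000415) and Gata4 (35.2, 27.5 and 64.5 in GF-WT and 8.78, 1.00 and 10.8 in COLONIZED-WT, log2 fold change −2.63, SE 0.67, adjusted p 0.000939) fell. The rise was that of Itln1 (log2 fold change 3.48, SE 0.34, adjusted p 1.74e-21), described above with the goblet cell products. It was the only member of this list that edgeR called. Apoa1 and Gata4 lost their calls (adjusted p 0.0176 and 0.0406) without GF-WT replicate 3, the library with the highest Sis and Apoa1. Sis and Gata4 were not called by edgeR, which did not test Apoa1, and none of the 3 was called with sex as a covariate. Without GF-WT replicate 3 the log2 fold changes were −2.98 for Sis and −4.05 for Apoa1. Apoa1 rested on 3 reads over the colonized group against 629 over the germ-free group, a ratio of 201 between the groups with a 95% exact interval from 68.5 to 977 that covers counting error only and not the spread between libraries. Where along the distal colon each library began is not given. The list levels of the enterocyte, transport, surface and brush border genes were likewise lowest in GF-WT replicate 1 and highest in GF-WT replicate 3 among the germ-free libraries, though single genes such as Slc5a8 and Atp12a were highest in replicate 1. The part of such positions in the results was not tested.

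**Figure D5:**
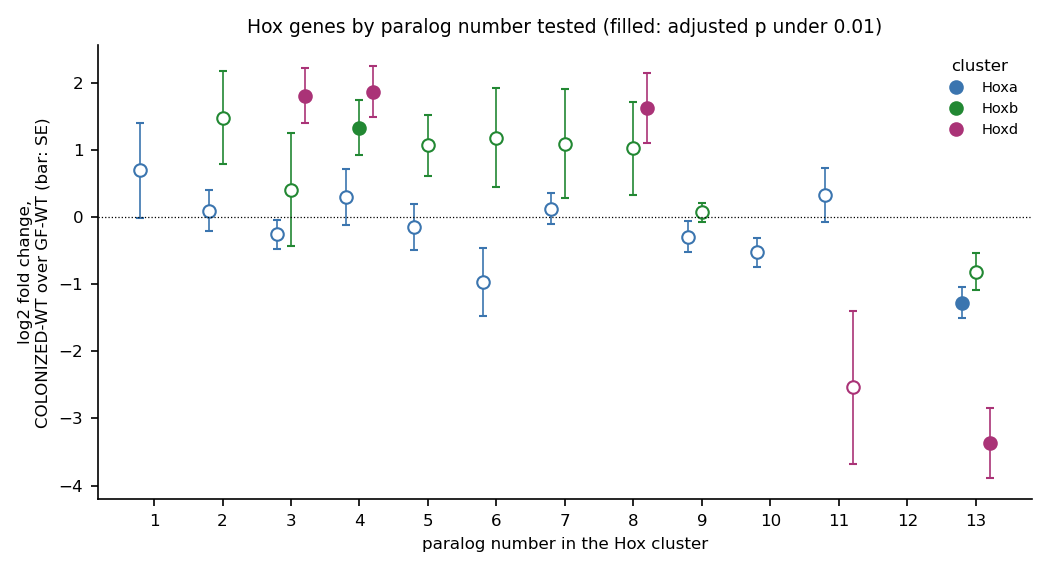
Log2 fold change with its SE of each tested Hox gene of clusters a, b and d by its paralog number, filled where the adjusted p was under 0.01. Hoxd3, Hoxd4, Hoxb4 and Hoxd8 are higher and Hoxa13 and Hoxd13 lower after colonization.

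The comparison most like this one is that of the libraries labelled GF-Ern2-/- and COLONIZED-Ern2-/-, mice that carry a deletion of Ern2 by their label. Ern2 was counted in all 6 of those libraries, at 479.3 to 4095 normalized counts, so the labels could not be checked by its level. Whether the response differed between the genotype labels was tested by the interaction term over 12 libraries. DESeq2 called 5 of 17884 genes (0.028%), all with the larger log2 fold change in WT. edgeR called 0 of 13045 genes, of which 947 had an unadjusted p under 0.05. In each of those groups 2 of 3 libraries had the Y-linked pattern. Among the 5 genes were Pla2g4c, Meg3, Pnliprp2 and Itln1. Calls in the opposite direction appeared without GF-WT replicate 1 (3 of 4) and with the replicate number as a block (2 of 5). For every other gene named here the interaction was not called, which does not show that the responses were alike.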

How the data were processed

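RNA of colon crypts was sequenced by the study (stranded mRNA libraries, 75 cycles, single reads). The authors deposited raw counts per gene, which their processing notes link to STAR, mm10 and DESeq2 with no versions. The annotation, the strand setting of the counting and the handling of paralogs are not given in the sources used here, so antisense and near-identical genes are uncertain. 27 symbols had been turned into dates and were not named. Groups came from the sample labels. DESeq2 1.42.0 (R 4.3.3; Wald test, its default scaling and filters, no shrinkage) compared 3 with 3 libraries, with Benjamini-Hochberg adjustment over all tested genes, and tested the interaction with the genotype label over 12 libraries. edgeR 4.0.16 (quasi-likelihood) was the main alternative. In all 15 alternatives were tried (test, scaling, filter, each library left out, sex, replicate block, libraries of the fit). Named genes were the 12 largest changes in each direction with a mean of at least 100 normalized counts that passed both tests, up to 4 called members of each list and direction by adjusted p, and a set of genes listed by name. Some genes that these rules chose are not reported here. Members, the 50 lists written for this report and the 5 single-cell signatures were chosen with earlier results of these data known, so a list's direction is not independent evidence. Columns of no sample numbered 0. The code was tested on simulated data. Library totals (18.8 to 23.2 in units of 1e6 counts) limit the precision of genes with few counts.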

Additional observations from a re-analysis of the deposited data

Results flagged for a closer look

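The response to colonization differed for 5 genes, 4 of them described here, between WT and the libraries labelled Ern2-/- by the interaction term of DESeq2 (adjusted p under 0.01 over 17884 genes). The log2 fold change was larger in WT by these amounts, as values of the Ern2-/- label minus WT. For Pla2g4c the difference was −4.97 (SE 0.96, adjusted p 0.00228), with 6.64 in WT and 1.67 in the Ern2-/- label. For Meg3 it was −4.30 (SE 0.85, adjusted p 0.00283), with 8.23 and 3.93, so that Meg3 was called in both. For Pnliprp2 it was −3.74 (SE 0.78, adjusted p 0.00661), with 3.27 and −0.47. For Itln1 it was −3.45 (SE 0.73, adjusted p 0.00752), with 3.48 and 0.02. None of the 4 was called by edgeR (adjusted p 0.659 for each) or with sex as a covariate (0.0661 to 0.373). Of the 12 fits that each left out 1 library, Pla2g4c was called in 7, Meg3 in 4, and Pnliprp2 and Itln1 in 3. Both effects were estimated with germ-free and colonized libraries of their own, and in the WT group alone sex differed between germ-free and colonized libraries.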

How the results depend on the processing

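DESeq2 called 2498 genes between COLONIZED-WT and GF-WT. edgeR called 630, all among them. Sex as a covariate gave 231 calls (223 among the 2498), only libraries without the Y-linked pattern 143 (133; both fits have 1 colonized library to set against GF-WT) and 1 fit over all 18 libraries 1261 (1188). Leaving out 1 library gave between 1276 (without COLONIZED-WT replicate 1) and 2672 calls (without GF-WT replicate 1), and 1550 without COLONIZED-WT replicate 3. TMM scaling gave 2424 calls, library totals 2314 (1311 higher and 1003 lower), no filter 2356 and a minimum of 10 counts in 3 libraries 2533. With the replicate block there were 2272 calls, 1997 of them among the 2498. The labels do not say whether equal replicate numbers pair the libraries. Correlations of same-numbered deviations were 0.173, −0.126 and 0.341, and those of differently numbered ones lay between −0.376 and 0.165. With 3 libraries in each group these values cannot decide it. For the interaction, 5 calls became 0 with edgeR and with sex as a covariate, were 5 in number with the replicate block (2 of them with the larger log2 fold change in the Ern2-/- label), and ranged from 0 to 5 when 1 library was left out (0 without COLONIZED-Ern2-/- replicate 3, and 4 without GF-WT replicate 1, 3 of them larger in the Ern2-/- label). In the other fits that left out 1 library and made calls, every call was larger in WT. No scaling moved the median of all tested genes by 0.1. Of the 2498 calls, 1, that of a Y-linked gene, turned its direction with sex as a covariate and in libraries without the Y-linked pattern. Among the genes named here, directions turned for some that were not called. When 1 library was left out, values ranged from −0.01 to 0.19 for Ern2 (lowest without GF-WT replicate 2), −0.11 to 0.29 for Pparg (−0.02 without COLONIZED-WT replicate 3), −0.49 to 0.01 for Slc16a1, −0.04 to 0.82 for Insl5 and −1.54 to 0.13 for Cldn4. Aqp4 was at 0.13 with sex as a covariate and 0.14 in libraries without the Y-linked pattern. The median of the cytokine and chemokine list was −0.175 with edgeR and −0.165 with a minimum of 10 counts in 3 libraries, which leave out genes of low counts. The cause of the other differences was not tested.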
